A study of Homo sapiens with 12 samples.

Results

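Solute carriers are the membrane proteins, apart from pumps and channels, that move sugars, amino acids, ions, metals, vitamins and metabolites across the plasma membrane and the membranes of organelles. A gene entered the set if its symbol began with SLC and a digit and if 1 of its probes had a detection p below 0.01 on all 3 arrays of any 1 group. Of 383 such genes on the array 192 met this rule, out of 10532 genes of any name that met it, and the brightest probe stood for each gene. The rule reads detection alone and no difference between groups. By substrate the 192 genes fell into 26 transporters of amino acids and peptides, 15 of sugars, 4 of carboxylates, 4 of nucleosides and nucleobases, 18 of inorganic ions, 24 of metals, 14 of organic ions, amines and lipids, 15 of vitamins, choline and cofactors, 30 mitochondrial carriers and 16 carriers of nucleotide sugars. A further 16 had no assigned substrate, and 10 bear an SLC symbol but are pseudogenes, antisense or neighbouring transcripts, or proteins of another kind.

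The cells were 16HBE, an immortalised human bronchial epithelial line, with 3 samples in each of 4 groups. The design text gives 3 independent experiments with 1 sample of each group, but no label says which experiment a sample's number stands for. Cells with the empty retroviral vector pQCXIP received the solvent DMSO for 4 days (Control), the MEK inhibitor GSK1120212 at 500 nM for 4 days (GSK), or the ERK inhibitor SCH772984 at 1 µM for 4 days (ERKi). Other cells stably carried pQCXIP with a dominant-negative Ras, DN Ras N17 in the labels (DN_Ras), and their labels give neither solvent nor treatment time. All groups carried the vector, and the labels do not say whether a stable line was a pool or a clone. Ras activates the kinases RAF, MEK and ERK in sequence, and the series compared expression with this cascade held back at 3 levels.

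Epithelial cells place carriers on their apical and basolateral faces and use them to take up nutrients and to set the salt and pH of the airway surface. In many cell types growth factor signals through Ras and ERK raise the uptake of glucose and amino acids, partly through transcription factors such as MYC. Exchangers couple the entry of one substrate to the exit of another, and several carriers reach the membrane only with a partner protein.

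On each array 35.6% to 38.7% of 47322 probes were detected, and arrays of the same group correlated at r of 0.978 to 0.9935 across genes, which are not independent replicates. In DN_Ras replicate 3, 85 genes differed 2-fold or more, in the same direction, from each of the other DN_Ras samples, 1 of them a solute carrier gene; no other sample had over 22 such genes within its group. EGR1, an immediate transcriptional output of the cascade, was lower in every inhibited group, by log2 changes of -3.20, -3.24 and -2.70 with GSK, with ERKi and in DN_Ras. The other listed outputs FOSL1, DUSP6 and SPRY4 were also lower in each, but FOSL1 not to the same extent. DUSP6 and SPRY4 passed the detection rule only through the control arrays. Their falls are therefore tied to that rule and are a description only. FOSL1 changed by -2.00 with ERKi and -2.54 in DN_Ras. It was detected on no GSK array, where it was at least 9.10-fold lower than in control and at least 2.28-fold lower than with ERKi. All 5 epithelial markers were detected on all 3 arrays of every group, 2 of 4 measured leukocyte markers were (CD14 and CD68), and none of 5 endothelial markers was so in any group. Of 5 fibroblast markers, 2 were detected on all 3 GSK arrays and 1 in each other group; their part in the results was not tested. In RNA from whole cultures, fewer cells of a type and less RNA per cell cannot be told apart.

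Values below are log2 normalised signals, a change is a difference of group means on that scale with its standard error, and a gene is called where limma's Benjamini-Hochberg adjusted p over 10532 genes is under 0.05. With the MEK inhibitor limma called 40 of the 192 genes, or 20.8%, beside 16% of all genes; 18 were higher, beside 7.11% of all genes, and 22 lower, beside 8.86%. With the ERK inhibitor it called 27 of the 192 genes, or 14.1%, beside 11.4% of all genes; 16 were higher, beside 5.92% of all genes, and 11 lower, beside 5.48%. In DN_Ras it called 31 of the 192 genes, or 16.1%, beside 12.3% of all genes; 15 were higher, beside 5.81% of all genes, and 16 lower, beside 6.45%. These shares lie near, or a few points above, those of all genes. Among the 174 genes detected on all 12 arrays, 37, 24 and 30 were called, and 6 genes met the detection rule through 1 group only. The median changes of the 192 genes were 0.03, 0.00 and 0.02. With 3 arrays a group, lack of overlap with control was common among the 192 genes. It held for 42.7% with GSK, 38.5% with ERKi and 32.3% in DN_Ras, and the share of all genes is not given here. The 3 comparisons share the 3 control arrays. In all, 73 genes were called in at least 1 of 6 comparisons between groups and 119 in none. The matching share of all genes was not computed, so this count is a description only. Results were recomputed under 23 alternatives, 12 of which left out 1 array. Where such an alternative ended the call of a gene described below, the text says so; the other calls held under each alternative that could be computed for them.

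**Figure D1:**
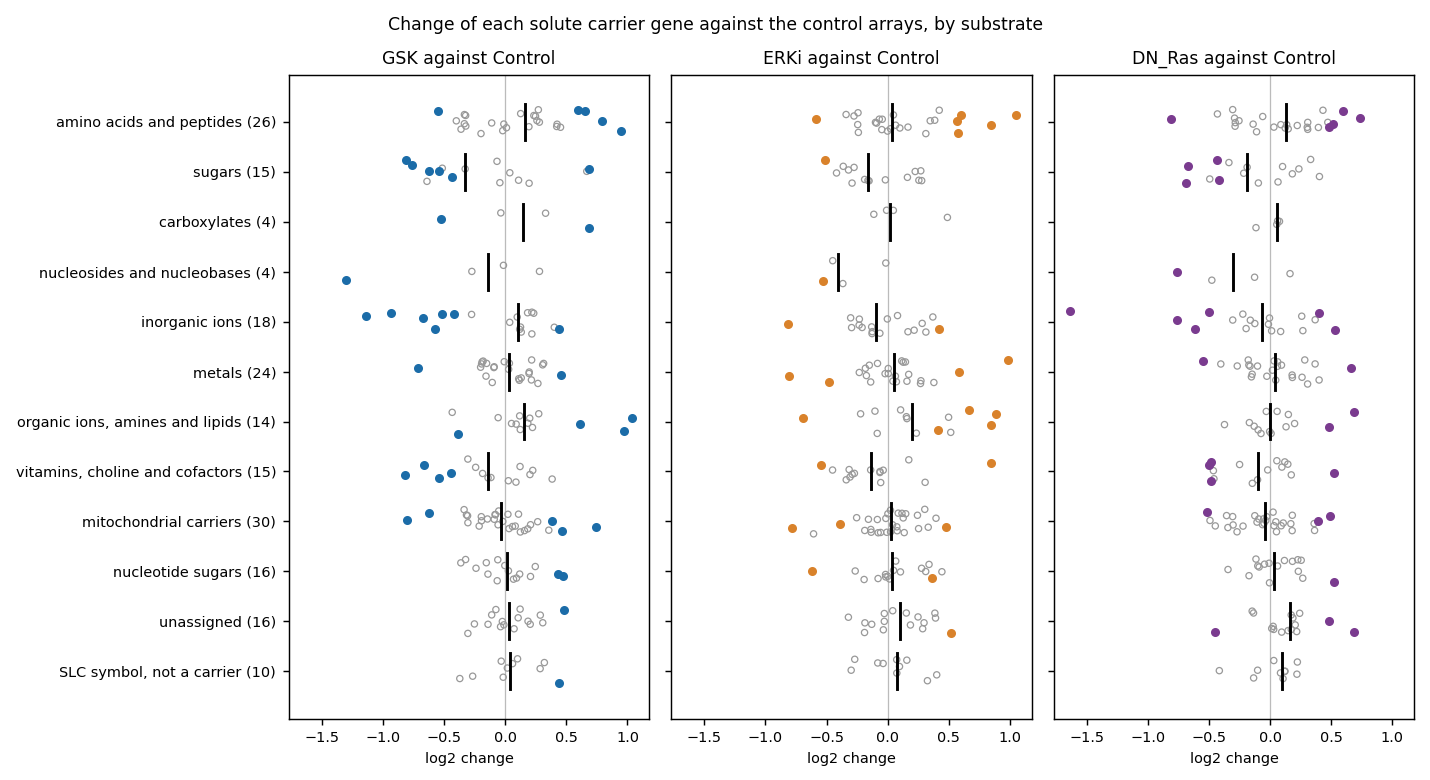
Log2 change of each of the 192 solute carrier genes against the control arrays, in rows by substrate with the number of genes in brackets, for GSK (left), ERKi (middle) and DN_Ras (right). Filled points are called genes, open points are not, and black bars are class medians; in the sugar row the median sits below 0 in each panel, at -0.33, -0.16 and -0.19.

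Both chains of the large neutral amino acid exchanger rose in every inhibited group. SLC3A2 encodes the heavy chain (4F2hc, CD98), a glycoprotein that brings several light chains to the plasma membrane, and SLC7A5 (LAT1) is the light chain that imports leucine and other large neutral amino acids. SLC3A2 read 10.31, 10.09 and 10.06 in control, 11.20, 11.03 and 11.06 with GSK, 10.67, 10.87 and 10.73 with ERKi, and 10.91, 10.79 and 10.53 in DN_Ras. Every inhibited array lay above every control array. SLC3A2 rose by 0.95 ± 0.13 with GSK (adjusted p = 8.45e-05), 0.60 ± 0.13 with ERKi (adjusted p = 0.00585) and by 0.59 ± 0.13 in DN_Ras (adjusted p = 0.00592). A second SLC3A2 probe also rose, by 1.42, 0.85 and 0.96. The SLC3A2 call in DN_Ras was lost with one-median scaling (adjusted p = 0.268). SLC7A5 read 11.24, 11.08 and 11.21 in control, 11.90, 11.77 and 11.64 with GSK, 11.78, 11.58 and 11.89 with ERKi, and 11.74, 11.76 and 11.57 in DN_Ras, again with no inhibited array as low as a control array. SLC7A5 rose by 0.59 ± 0.12 with GSK (adjusted p = 0.00319), 0.57 ± 0.12 with ERKi (adjusted p = 0.00614) and by 0.51 ± 0.12 in DN_Ras (adjusted p = 0.0115). The SLC7A5 call with GSK was lost with one-median scaling (adjusted p = 0.0798). The SLC7A5 call with ERKi was lost with one-median scaling or scaling to the median of detected probes (adjusted p of 0.0898 to 0.125). The SLC7A5 call in DN_Ras was lost without Control replicate 2 and with one-median scaling (adjusted p of 0.0521 to 0.24). SLC7A11 (xCT), the cystine and glutamate exchanger that uses the same heavy chain, was detected on 2 control arrays and on all others and gave differences from control of 0.45, 0.05 and 0.15 (SE 0.20), none called.

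Called in all 3 groups were SLC3A2, SLC7A5, SLC9D1, SLC22A5 and SLC41A2, each higher, and SLC2A12, SLC9A2 and SLC43A3, each lower. The share of all genes called in all 3 groups was not computed. The promoters of SLC3A2 and SLC7A5, as the 2 chains of 1 exchanger, and of the sugar transporter SLC2A12, as an example that was lower, are shown here, a choice made after their values were seen. They come from RefSeq (GRCh38.p14) and run from 250 bases before the start site to 50 after it on the gene's own strand. Capitals mark matches, on either strand, to the AP-1 motif TGANTCA, the ETS motif CCGGAAG, the C/EBP-ATF motif TGATGNAA or the E-box CACGTG, and no matches of different motifs overlap here. The windows are chr11:62881449-62881748 (plus strand), chr16:87869458-87869757 (minus strand) and chr6:134052575-134052874 (minus strand).
SLC3A2: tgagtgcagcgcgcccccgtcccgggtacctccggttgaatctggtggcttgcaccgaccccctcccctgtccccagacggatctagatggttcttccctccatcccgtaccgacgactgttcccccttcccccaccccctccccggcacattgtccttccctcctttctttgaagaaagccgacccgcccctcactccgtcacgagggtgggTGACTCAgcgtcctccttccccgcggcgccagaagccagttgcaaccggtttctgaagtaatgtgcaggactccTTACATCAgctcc
SLC7A5: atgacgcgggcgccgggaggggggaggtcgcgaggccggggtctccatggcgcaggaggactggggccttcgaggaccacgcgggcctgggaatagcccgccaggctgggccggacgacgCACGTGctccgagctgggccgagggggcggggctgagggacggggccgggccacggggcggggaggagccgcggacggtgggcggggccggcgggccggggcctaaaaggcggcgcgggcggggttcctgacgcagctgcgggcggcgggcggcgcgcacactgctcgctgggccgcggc
SLC2A12: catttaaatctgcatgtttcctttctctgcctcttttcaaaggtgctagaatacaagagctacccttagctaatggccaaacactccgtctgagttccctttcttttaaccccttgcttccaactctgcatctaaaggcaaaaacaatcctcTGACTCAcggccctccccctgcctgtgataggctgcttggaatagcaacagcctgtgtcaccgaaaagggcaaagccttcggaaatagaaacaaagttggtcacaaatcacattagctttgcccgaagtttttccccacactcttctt
The SLC3A2 window holds an AP-1 match that begins 37 bases before the start site and a C/EBP-ATF match that begins 37 bases after it. The SLC7A5 window holds an E-box 130 bases before the start site, and the SLC2A12 window an AP-1 match 98 bases before it. Among 35116 promoter windows of this length, 7.71% hold the AP-1 motif, 10.3% the ETS motif, 3.62% the C/EBP-ATF motif and 7.26% the E-box. Of the 192 genes 164 had a promoter in the table, and 4.88%, 14.6%, 4.27% and 11% of these hold the motifs in that order. The 35116 windows were not limited to detected genes or to 1 window a gene, as the 164 were. The 2 sets are therefore unlike, and their shares were not compared by a test. A match describes the letters only.

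Beyond this pair, amino acid and peptide transporters differed from gene to gene. Of 26 genes, 4 rose and 1 fell with GSK, 5 rose and 1 fell with ERKi, and 4 rose and 1 fell in DN_Ras (19.2%, 23.1% and 19.2% called, beside 16%, 11.4% and 12.3% of all genes), with class medians of 0.16, 0.04 and 0.13. The rises with GSK include SLC15A2, which entered the set only through the GSK arrays and is described below with no test. SLC7A14, which entered only through the ERKi arrays, is also among the 26. SLC15A3, a peptide and histidine transporter of lysosomes, read 7.17, 7.66 and 7.75 in control, 8.18, 8.16 and 8.20 with GSK, 8.76, 8.45 and 8.50 with ERKi, and 8.27, 7.88 and 7.84 in DN_Ras. Every inhibited array lay above the highest control array. SLC15A3 rose by 1.05 ± 0.16 with ERKi (adjusted p = 0.000496) and by 0.65 ± 0.16 with GSK (adjusted p = 0.00989), the former being the largest rise of the set with ERKi, and the DN_Ras difference of 0.47 (SE 0.16) did not pass (adjusted p = 0.0624). The SLC15A3 call with GSK was lost without Control replicate 1 and with one-median scaling (adjusted p of 0.0609 to 0.126). SLC1A4 (ASCT1), an exchanger of alanine, serine and cysteine, read 6.02, 5.78 and 5.81 in control, 6.38, 6.16 and 6.32 with GSK, 6.72, 6.49 and 6.93 with ERKi, and 6.39, 5.85 and 5.73 in DN_Ras. It rose by 0.84 ± 0.16 with ERKi (adjusted p = 0.00369), while GSK minus ERKi did not pass (adjusted p = 0.122). SLC1A5 (ASCT2), the glutamine transporter, gave differences of -0.33, -0.10 and -0.11 (SE 0.15), none called.

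SLC1A3 (GLAST, EAAT1), which takes up glutamate and aspartate, read 9.64, 9.63 and 9.52 in control, 9.24, 8.86 and 9.05 with GSK, 9.60, 9.40 and 9.52 with ERKi, and 8.79, 8.67 and 8.90 in DN_Ras. The control and ERKi arrays overlapped, and the GSK and DN_Ras arrays lay below both. SLC1A3 fell by 0.81 ± 0.12 in DN_Ras (adjusted p = 0.000447) and fell by 0.55 ± 0.12 with GSK (adjusted p = 0.00549). For it DN_Ras minus ERKi was -0.72 ± 0.12 (adjusted p = 0.00141) and GSK minus ERKi was -0.46 ± 0.12 (adjusted p = 0.0246). The SLC1A3 call between GSK and ERKi was lost without GSK replicate 2 or 3 or ERKi replicate 1 or 3 (adjusted p of 0.0635 to 0.129). SLC7A2, a cationic amino acid transporter, read 5.76, 6.13 and 5.92 in control, 6.10, 6.17 and 6.36 with GSK, 5.05, 5.55 and 5.45 with ERKi, and 5.38, 5.56 and 6.11 in DN_Ras. The ERKi arrays lay below all GSK and control arrays. SLC7A2 fell by 0.59 ± 0.18 with ERKi (adjusted p = 0.0457), and GSK minus ERKi was 0.86 ± 0.18 (adjusted p = 0.00585). The SLC7A2 call with ERKi was lost without Control replicate 1, 2 or 3, GSK replicate 1, 2 or 3, ERKi replicate 1, 2 or 3 or DN_Ras replicate 2 and with one-median scaling, normexp background correction or no detection filter (adjusted p of 0.0506 to 0.19).

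SLC38A2 (SNAT2), a sodium-coupled importer of small neutral amino acids, read 10.31, 10.04 and 9.93 in control, 9.82, 9.52 and 9.74 with GSK, 9.95, 10.03 and 10.10 with ERKi, and 10.35, 10.49 and 10.89 in DN_Ras. The DN_Ras arrays were the highest and the GSK arrays the lowest. For SLC38A2 DN_Ras minus GSK was 0.88 ± 0.15 (adjusted p = 0.00336). Against control it rose by 0.48 ± 0.15 in DN_Ras (adjusted p = 0.0444). The SLC38A2 call in DN_Ras was lost without Control replicate 2 or 3, GSK replicate 3, ERKi replicate 1, 2 or 3 or DN_Ras replicate 2 or 3 and with one-median scaling, scaling to the median of detected probes, no detection filter or only these 2 groups in the fit (adjusted p of 0.0514 to 0.412). SLC36A4, a transporter of proline and tryptophan, read 7.82, 8.82 and 8.36 in DN_Ras and between 7.40 and 7.80 on the other arrays, so that DN_Ras replicates 2 and 3 set its level. It rose by 0.73 ± 0.19 in DN_Ras (adjusted p = 0.0212). The SLC36A4 call in DN_Ras was lost without Control replicate 2 or 3 or DN_Ras replicate 2 and with one-median scaling, no detection filter or only these 2 groups in the fit (adjusted p of 0.054 to 0.0866).

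Some genes of this class were not detected on every array, among them SLC38A5, SLC43A2 and the 2 that follow. SLC15A2 (PEPT2), a peptide transporter of epithelia, was detected on all 3 GSK arrays, at 5.19, 5.23 and 5.19, on no Control or ERKi array and on 1 DN_Ras array. Set against the lowest detected signal of each control array, its level with GSK was at least 1.28-fold higher. SLC7A14, a relative of the cationic amino acid transporters, was detected on all 3 ERKi arrays, at 5.07, 5.21 and 4.98, on 2 GSK arrays and on no Control or DN_Ras array. With ERKi its level was at least 1.18-fold higher than in control and at least 1.23-fold higher than in DN_Ras. SLC15A2 entered the set only through the GSK arrays and SLC7A14 only through the ERKi arrays, so these differences are tied to the detection rule and are given as a description with no test.

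**Figure D2:**
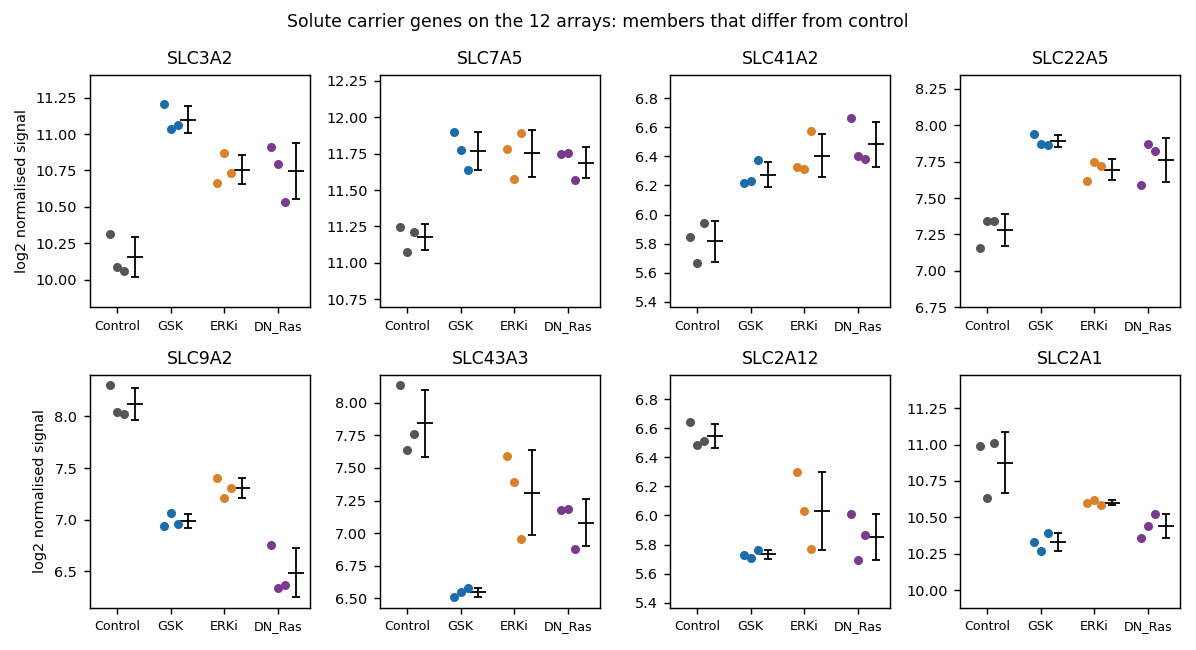
Log2 normalised signal of 8 solute carrier genes on each of the 12 arrays, by group; points are arrays and the bar beside them is the mean with the SD (n = 3). SLC3A2, SLC7A5, SLC41A2 and SLC22A5 lie above the control arrays in every inhibited group, and SLC9A2, SLC43A3, SLC2A12 and SLC2A1 lie below them.

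Of 15 sugar transporters, 1 rose and 5 fell with GSK, 0 rose and 1 fell with ERKi, and 0 rose and 4 fell in DN_Ras. Beside these counts, 7.11% and 8.86% of all genes were called higher and lower with GSK, 5.92% and 5.48% with ERKi and 5.81% and 6.45% in DN_Ras. The falls with GSK and in DN_Ras include SLC2A9, which entered the set only through the control arrays and is described below with no test. The class medians were -0.33, -0.16 and -0.19, and over the 23 alternatives they ranged from -0.48 to -0.20 with GSK, -0.22 to -0.03 with ERKi and -0.29 to -0.10 in DN_Ras. SLC2A1 (GLUT1), the basal glucose importer of most cells, read 10.99, 10.63 and 11.01 in control, 10.33, 10.27 and 10.39 with GSK, 10.60, 10.62 and 10.59 with ERKi, and 10.36, 10.44 and 10.52 in DN_Ras. All inhibited arrays lay below all control arrays, by the narrowest margin with ERKi. SLC2A1 fell by 0.54 ± 0.12 with GSK (adjusted p = 0.00497) and fell by 0.44 ± 0.12 in DN_Ras (adjusted p = 0.0256), and the ERKi difference of -0.28 (SE 0.12) did not pass (adjusted p = 0.149). The SLC2A1 call in DN_Ras was lost without Control replicate 1 or 3 or DN_Ras replicate 1 or 2 and with only these 2 groups in the fit (adjusted p of 0.0599 to 0.111). SLC2A12 (GLUT12), a glucose transporter whose promoter is printed above, read 6.64, 6.48 and 6.51 in control, 5.73, 5.71 and 5.77 with GSK, 6.30, 6.03 and 5.77 with ERKi, and 6.01, 5.69 and 5.86 in DN_Ras. It fell by 0.81 ± 0.13 with GSK (adjusted p = 0.000622), 0.51 ± 0.13 with ERKi (adjusted p = 0.0233) and fell by 0.69 ± 0.13 in DN_Ras (adjusted p = 0.00364), with no overlap with control. The SLC2A12 call with ERKi was lost without Control replicate 1 or 3 or ERKi replicate 2 or 3 and with one-median scaling (adjusted p of 0.0587 to 0.31).

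SLC2A9 (GLUT9), a urate transporter, was detected on all 3 control arrays, at 5.09, 5.12 and 5.24, on 2 ERKi arrays and on no GSK or DN_Ras array. Its level was at least 1.23-fold lower with GSK and at least 1.29-fold lower in DN_Ras. SLC2A9 entered the set only through the control arrays, so this too is a description with no test. SLC2A10 (GLUT10), of the same family, fell by 0.44 ± 0.11 with GSK (adjusted p = 0.0161) and fell by 0.42 ± 0.11 in DN_Ras (adjusted p = 0.0274). The SLC2A10 call with GSK was lost without Control replicate 2 or GSK replicate 2 and with the mean of its probes (adjusted p of 0.0661 to 0.0789). The SLC2A10 call in DN_Ras was lost without Control replicate 2 or DN_Ras replicate 2 or 3 and with one-median scaling or only these 2 groups in the fit (adjusted p of 0.0738 to 0.117). SLC2A8 (GLUT8), an intracellular hexose transporter, went the other way, from 7.54, 7.61 and 7.68 in control to 8.25, 8.41 and 8.22 with GSK, and rose by 0.68 ± 0.13 with GSK (adjusted p = 0.00237). The SLC2A8 call with GSK was lost with one-median scaling (adjusted p = 0.0887).

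Further sugar transporters differed between inhibited groups. SLC2A3 (GLUT3), a high-affinity glucose importer, read 9.91, 10.58 and 10.24 in control, 10.72, 11.10 and 10.91 with GSK, 10.05, 10.02 and 10.18 with ERKi, and 10.07, 9.77 and 11.08 in DN_Ras, with wide control and DN_Ras spreads. For SLC2A3 GSK minus ERKi was 0.83 ± 0.25 (adjusted p = 0.047), and no comparison with control was called. The SLC2A3 call between GSK and ERKi was lost without Control replicate 3, GSK replicate 1, 2 or 3 or ERKi replicate 1, 2 or 3 and with one-median scaling, no detection filter, the looser detection filter or the mean of its probes (adjusted p of 0.0501 to 0.169). SLC5A3 (SMIT1), the sodium and myo-inositol cotransporter that responds to osmotic stress, read 5.68, 4.98 and 5.55 in control, 4.86, 4.68 and 5.13 with GSK, 5.41, 4.75 and 4.79 with ERKi, and 5.83, 5.73 and 5.86 in DN_Ras. It was detected on all 3 control and DN_Ras arrays but on 1 GSK and 2 ERKi arrays only, so the low side of its differences lies near background. For it DN_Ras minus GSK was 0.92 ± 0.19 (adjusted p = 0.0147) and DN_Ras minus ERKi was 0.82 ± 0.19 (adjusted p = 0.0146). The SLC5A3 call between DN_Ras and GSK was lost without GSK replicate 2 and with no detection filter (adjusted p of 0.0528 to 0.0799). The SLC5A3 call between DN_Ras and ERKi was lost without ERKi replicate 2 or 3 (adjusted p of 0.0644 to 0.0674).

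SLC43A3, a purine nucleobase transporter, gave the largest fall of the set with GSK. It read 8.13, 7.64 and 7.76 in control, 6.51, 6.55 and 6.58 with GSK, 7.59, 7.39 and 6.95 with ERKi, and 7.18, 7.19 and 6.88 in DN_Ras. The GSK arrays lay in a narrow band below all others, and the ERKi and DN_Ras arrays lay below the control arrays. SLC43A3 fell by 1.30 ± 0.16 with GSK (adjusted p = 5.2e-05), 0.76 ± 0.16 in DN_Ras (adjusted p = 0.00656) and fell by 0.53 ± 0.16 with ERKi (adjusted p = 0.0473). For it GSK minus ERKi was -0.77 ± 0.16 (adjusted p = 0.00687). A second probe gave -1.27 with GSK (adjusted p = 0.00061), -0.43 with ERKi (0.212) and -0.63 in DN_Ras (0.0663). The SLC43A3 call with ERKi was lost without Control replicate 1 or 3, GSK replicate 1, 2 or 3, ERKi replicate 2 or 3 or DN_Ras replicate 2 and with one-median scaling, no detection filter, the looser detection filter, the mean of its probes or only these 2 groups in the fit (adjusted p of 0.0508 to 0.307). Of the nucleoside transporters SLC29A2, SLC29A3 and SLC29A4 none was called against control. SLC29A3, which serves lysosomes, read 5.90, 6.69 and 6.36 with GSK and 5.75, 5.52 and 5.49 with ERKi, where GSK minus ERKi was 0.73 ± 0.20 (adjusted p = 0.0263). The SLC29A3 call between GSK and ERKi was lost without GSK replicate 2 or 3 or ERKi replicate 2 or 3 and with one-median scaling or no detection filter (adjusted p of 0.0741 to 0.142).

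Of 18 inorganic ion transporters, 1 rose and 6 fell with GSK, 1 rose and 1 fell with ERKi, and 2 rose and 4 fell in DN_Ras (38.9%, 11.1% and 33.3% called, beside 16%, 11.4% and 12.3% of all genes). SLC9A2 (NHE2), an apical sodium and proton exchanger of epithelia, had the largest fall of the set with ERKi and in DN_Ras. It read 8.30, 8.04 and 8.02 in control, 6.94, 7.06 and 6.95 with GSK, 7.41, 7.21 and 7.30 with ERKi, and 6.76, 6.34 and 6.36 in DN_Ras. No group overlapped another at this gene. SLC9A2 fell by 1.64 ± 0.13 in DN_Ras (adjusted p = 1.33e-06), 1.14 ± 0.13 with GSK (adjusted p = 2.19e-05) and fell by 0.82 ± 0.13 with ERKi (adjusted p = 0.000895). For it DN_Ras minus ERKi was -0.82 ± 0.13 (adjusted p = 0.00108) and DN_Ras minus GSK was -0.50 ± 0.13 (adjusted p = 0.0438), whereas GSK minus ERKi did not pass (adjusted p = 0.147). The SLC9A2 call between DN_Ras and GSK was lost without Control replicate 2 or 3, GSK replicate 1, 2 or 3, ERKi replicate 2 or 3 or DN_Ras replicate 2 or 3 and with one-median scaling, scaling to the median of detected probes, normexp background correction, no detection filter or only these 2 groups in the fit (adjusted p of 0.0527 to 0.368). SLC9D1 (TMCO3), a putative exchanger of the same family, read 7.48, 7.60 and 7.67 in control, 8.08, 7.93 and 8.05 with GSK, 7.81, 7.97 and 8.22 with ERKi, and 8.02, 8.23 and 8.08 in DN_Ras, and rose by 0.44 ± 0.12 with GSK (adjusted p = 0.0235), 0.42 ± 0.12 with ERKi (adjusted p = 0.0400) and by 0.53 ± 0.12 in DN_Ras (adjusted p = 0.0107). The SLC9D1 call with GSK was lost without Control replicate 1 or 2 or GSK replicate 1 or 3 and with one-median scaling (adjusted p of 0.0553 to 0.424). The SLC9D1 call with ERKi was lost without Control replicate 1, 2 or 3, GSK replicate 3 or ERKi replicate 2 or 3 and with one-median scaling (adjusted p of 0.0549 to 0.165). The SLC9D1 call in DN_Ras was lost without Control replicate 1 and with one-median scaling (adjusted p of 0.0538 to 0.255).

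The sodium-phosphate importers SLC20A1 (PiT-1) and SLC20A2 (PiT-2) were both lower with GSK and in DN_Ras. SLC20A1 read 9.97, 9.88 and 9.99 in control, 9.40, 9.29 and 9.44 with GSK, 9.67, 9.59 and 9.70 with ERKi, and 9.35, 9.58 and 9.41 in DN_Ras. It fell by 0.57 ± 0.11 with GSK (adjusted p = 0.00162) and fell by 0.50 ± 0.11 in DN_Ras (adjusted p = 0.00619), and the ERKi difference of -0.30 (SE 0.11) did not pass. SLC20A2 read 9.10, 8.90 and 8.94 in control, 8.75, 8.52 and 8.41 with GSK, 8.81, 8.71 and 8.79 with ERKi, and 8.33, 8.32 and 8.46 in DN_Ras. It fell by 0.42 ± 0.12 with GSK (adjusted p = 0.0208) and fell by 0.61 ± 0.12 in DN_Ras (adjusted p = 0.00300), and its ERKi difference was -0.21 (SE 0.12). The SLC20A2 call with GSK was lost without Control replicate 1 or GSK replicate 2 or 3 (adjusted p of 0.077 to 0.101). XPR1, the phosphate exporter and no member of the set, fell by 0.51 ± 0.13 with ERKi (adjusted p = 0.0225) and differed from control by -0.06 and 0.06 (SE 0.13) with GSK and in DN_Ras. The XPR1 call with ERKi was lost without Control replicate 1, 2 or 3 or ERKi replicate 1 or 3 and with one-median scaling (adjusted p of 0.0521 to 0.323).

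SLC4A11, a bicarbonate transporter relative that conducts protons, read 6.94, 6.63 and 6.72 in control, 5.78, 5.94 and 5.76 with GSK, 6.53, 6.36 and 6.49 with ERKi, and 6.13, 6.12 and 5.76 in DN_Ras. It fell by 0.93 ± 0.13 with GSK (adjusted p = 0.000139) and fell by 0.76 ± 0.13 in DN_Ras (adjusted p = 0.00151), the ERKi arrays lay between, and GSK minus ERKi was -0.63 ± 0.13 (adjusted p = 0.00553). SLC8B1 (NCLX), the mitochondrial sodium and calcium exchanger, read 7.94, 7.71 and 8.05 in control, 7.36, 7.19 and 7.15 with GSK, 8.50, 7.90 and 7.95 with ERKi, and 7.84, 7.89 and 7.60 in DN_Ras, so that the GSK arrays lay below all others. It fell by 0.67 ± 0.16 with GSK (adjusted p = 0.00817), and GSK minus ERKi was -0.89 ± 0.16 (adjusted p = 0.00172). SLC12A2 (NKCC1), the basolateral chloride loader behind airway fluid secretion, read 6.92, 6.79 and 6.87 in control, 6.29, 6.56 and 6.20 with GSK, 6.74, 6.66 and 6.49 with ERKi, and 6.91, 6.59 and 6.42 in DN_Ras. It fell by 0.51 ± 0.14 with GSK (adjusted p = 0.0185), and a second probe fell by 0.59. The SLC12A2 call with GSK was lost without Control replicate 1 or 3 or GSK replicate 1 or 3 (adjusted p of 0.0562 to 0.0872).

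Of 24 metal transporters, 1 rose and 1 fell with GSK, 2 rose and 2 fell with ERKi, and 1 rose and 1 fell in DN_Ras (8.33%, 16.7% and 8.33% called, beside 16%, 11.4% and 12.3% of all genes). SLC11A2 (DMT1), the iron and manganese importer, read 8.67, 8.74 and 8.94 in control, 8.15, 8.03 and 8.03 with GSK, 8.69, 8.57 and 9.02 with ERKi, and 8.39, 8.20 and 8.10 in DN_Ras. The ERKi arrays overlapped control, and the GSK and DN_Ras arrays lay below both. SLC11A2 fell by 0.71 ± 0.13 with GSK (adjusted p = 0.00167) and fell by 0.55 ± 0.13 in DN_Ras (adjusted p = 0.0143), and GSK minus ERKi was -0.69 ± 0.13 (adjusted p = 0.00344). The SLC11A2 call in DN_Ras was lost without Control replicate 3 (adjusted p = 0.0728). SLC39A10 (ZIP10), a zinc importer, showed another order, with 7.63, 7.41 and 7.44 in control, 7.18, 7.29 and 7.47 with GSK, 6.55, 6.80 and 6.72 with ERKi, and 6.96, 7.58 and 7.51 in DN_Ras. The ERKi arrays lay below all others. SLC39A10 fell by 0.80 ± 0.15 with ERKi (adjusted p = 0.00325), where GSK minus ERKi was 0.62 ± 0.15 (adjusted p = 0.0163) and DN_Ras minus ERKi was 0.66 ± 0.15 (adjusted p = 0.0135). The SLC39A10 call between GSK and ERKi was lost without GSK replicate 2 or 3 or ERKi replicate 1 and with one-median scaling (adjusted p of 0.0518 to 0.284). The SLC39A10 call between DN_Ras and ERKi was lost without ERKi replicate 1 or DN_Ras replicate 2 and with one-median scaling or only these 2 groups in the fit (adjusted p of 0.0539 to 0.212). No other measured zinc importer of the SLC39 family (10 genes) was called against control, nor was any of 6 measured zinc exporters of the SLC30 family.

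SLC31A2 (CTR2), a copper transporter of endosomes and lysosomes, read 8.18, 8.18 and 8.18 in control, 8.70, 8.17 and 8.46 with GSK, 9.15, 9.29 and 9.04 with ERKi, and 8.75, 8.60 and 8.38 in DN_Ras. The ERKi arrays lay above all others. SLC31A2 rose by 0.98 ± 0.14 with ERKi (adjusted p = 0.000294), where GSK minus ERKi was -0.71 ± 0.14 (adjusted p = 0.00377) and DN_Ras minus ERKi was -0.58 ± 0.14 (adjusted p = 0.0156). The SLC31A2 call between DN_Ras and ERKi was lost without ERKi replicate 2 or DN_Ras replicate 3 (adjusted p of 0.059 to 0.0641). Its plasma membrane counterpart SLC31A1 (CTR1) gave 0.03, 0.07 and 0.31 (SE 0.12), none called. The magnesium transporter SLC41A2 read 5.85, 5.66 and 5.94 in control, 6.22, 6.23 and 6.38 with GSK, 6.33, 6.31 and 6.57 with ERKi, and 6.66, 6.40 and 6.38 in DN_Ras, with all inhibited arrays above control. It rose by 0.46 ± 0.12 with GSK (adjusted p = 0.0196), 0.59 ± 0.12 with ERKi (adjusted p = 0.00654) and by 0.66 ± 0.12 in DN_Ras (adjusted p = 0.00274). The SLC41A2 call with GSK was lost without Control replicate 1 or 2 or GSK replicate 3 and with one-median scaling (adjusted p of 0.052 to 0.312). The SLC41A2 call in DN_Ras was lost with one-median scaling (adjusted p = 0.0634). The iron exporter SLC40A1 (ferroportin) gave 0.31, 0.04 and 0.37 (SE 0.18), none called.

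**Figure D3:**
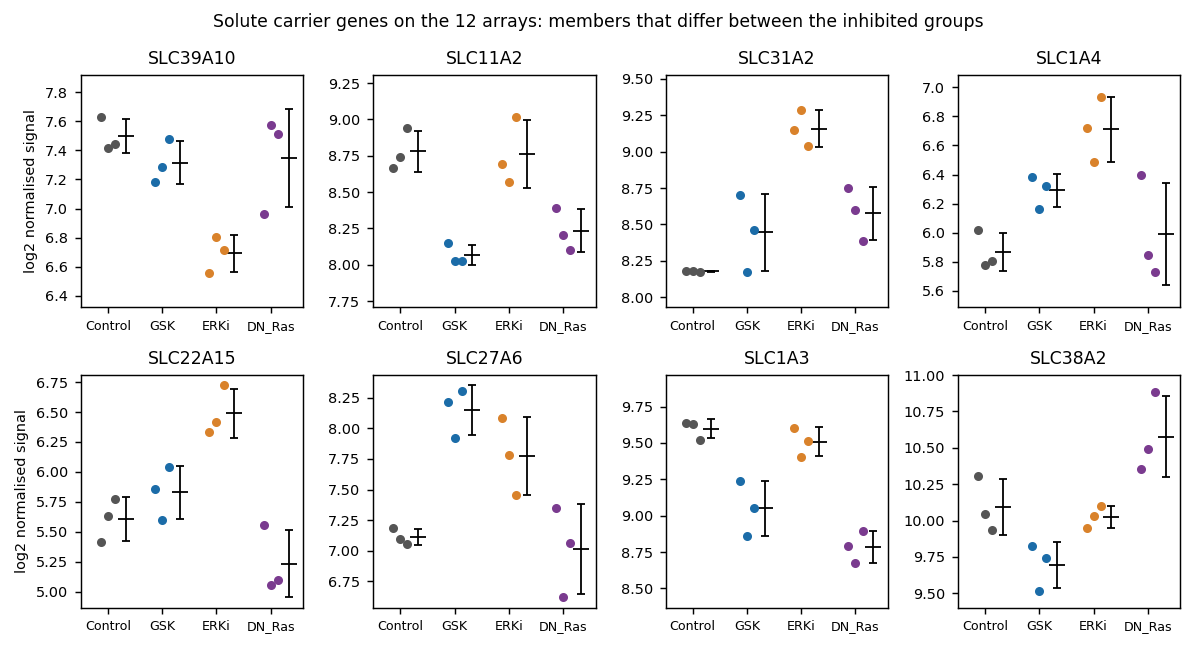
Log2 normalised signal of 8 solute carrier genes that differ between inhibited groups, on each of the 12 arrays; points are arrays and the bar beside them is the mean with the SD (n = 3). SLC39A10 is low and SLC31A2 and SLC22A15 are high on the ERKi arrays, and SLC11A2 and SLC1A3 are low on the GSK and DN_Ras arrays. SLC27A6 is high with GSK and ERKi by its brighter probe, the only one drawn, and SLC38A2 is high in DN_Ras.

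Of 14 carriers of organic ions, amines and lipids, 3 rose and 1 fell with GSK, 4 rose and 1 fell with ERKi, and 2 rose and 0 fell in DN_Ras (28.6%, 35.7% and 14.3% called, beside 16%, 11.4% and 12.3% of all genes). SLC22A5 (OCTN2), the carnitine importer, read 7.16, 7.34 and 7.35 in control, 7.94, 7.88 and 7.87 with GSK, 7.62, 7.75 and 7.72 with ERKi, and 7.59, 7.87 and 7.82 in DN_Ras, with all inhibited arrays above control. It rose by 0.61 ± 0.11 with GSK (adjusted p = 0.00147), 0.41 ± 0.11 with ERKi (adjusted p = 0.0276) and by 0.48 ± 0.11 in DN_Ras (adjusted p = 0.0116). The SLC22A5 call with GSK was lost with one-median scaling (adjusted p = 0.118). The SLC22A5 call with ERKi was lost without Control replicate 1, 2 or 3 or ERKi replicate 2 or 3 and with one-median scaling (adjusted p of 0.0529 to 0.119). The SLC22A5 call in DN_Ras was lost without Control replicate 1 and with one-median scaling or only these 2 groups in the fit (adjusted p of 0.0507 to 0.302). SLC25A20, the carnitine-acylcarnitine carrier that passes fatty acids into mitochondria, read 4.99, 5.46 and 5.51 in control, 6.32, 5.84 and 6.02 with GSK, 5.56, 5.64 and 5.52 with ERKi, and 5.86, 5.89 and 5.68 in DN_Ras. It rose by 0.74 ± 0.15 with GSK (adjusted p = 0.0033) and by 0.49 ± 0.15 in DN_Ras (adjusted p = 0.0459), and its ERKi difference was 0.25 (SE 0.15). The SLC25A20 call in DN_Ras was lost without Control replicate 1 or 2, GSK replicate 3, ERKi replicate 1, 2 or 3 or DN_Ras replicate 1 or 2 and with one-median scaling, normexp background correction, no detection filter, only these 2 groups in the fit or the replicate block (adjusted p of 0.0547 to 0.233). SLC22A23, an orphan of the organic ion family, read 6.57, 6.56 and 6.97 in control, 7.45, 7.68 and 7.88 with GSK, 7.24, 7.14 and 7.20 with ERKi, and 7.43, 7.04 and 7.69 in DN_Ras, and rose by 0.97 ± 0.17 with GSK (adjusted p = 0.000793) and by 0.69 ± 0.17 in DN_Ras (adjusted p = 0.0131). A second SLC22A23 probe rose with GSK by 0.50 and gave 0.10 in DN_Ras (adjusted p = 0.744). The SLC22A23 call in DN_Ras was lost without Control replicate 1 or 2 or DN_Ras replicate 3 and with one-median scaling or the mean of its probes (adjusted p of 0.0508 to 0.101).

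SLC22A15, an organic zwitterion transporter, read 5.42, 5.64 and 5.77 in control, 5.86, 5.60 and 6.04 with GSK, 6.33, 6.42 and 6.72 with ERKi, and 5.55, 5.05 and 5.10 in DN_Ras. The ERKi arrays lay above all others. It rose by 0.88 ± 0.16 with ERKi (adjusted p = 0.00249), and DN_Ras minus ERKi was -1.26 ± 0.16 (adjusted p = 0.000196). SLC6A2, the noradrenaline transporter, read 5.10, 4.68 and 4.99 in control, 5.25, 4.89 and 5.46 with GSK, 5.82, 5.73 and 5.78 with ERKi, and 4.70, 4.78 and 4.90 in DN_Ras, and was detected on 2 control, 3 GSK, 3 ERKi and 1 DN_Ras arrays. It rose by 0.85 ± 0.15 with ERKi (adjusted p = 0.00156), and DN_Ras minus ERKi was -0.98 ± 0.15 (adjusted p = 0.000659).

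SLC27A6, a fatty acid transport protein, read 7.18, 7.10 and 7.05 in control, 8.22, 7.92 and 8.31 with GSK, 8.09, 7.78 and 7.46 with ERKi, and 7.35, 6.62 and 7.07 in DN_Ras. The GSK and ERKi arrays lay above all control and DN_Ras arrays. It rose by 1.04 ± 0.18 with GSK (adjusted p = 0.000994) and by 0.66 ± 0.18 with ERKi (adjusted p = 0.0281), the former being the largest rise of the set with GSK, and DN_Ras minus GSK was -1.14 ± 0.18 (adjusted p = 0.00262). A dimmer SLC27A6 probe gave -0.42 with GSK and -0.36 with ERKi (adjusted p of 0.0831 and 0.161), so that the direction holds for only 1 of the 2 probes. For DN_Ras minus GSK the dimmer probe gave -0.06 (adjusted p = 0.894) and was not called. The SLC27A6 call with GSK was lost with the mean of its probes (adjusted p = 0.106). The SLC27A6 call with ERKi was lost without Control replicate 1, 2 or 3 or ERKi replicate 1 or 2 and with no detection filter or the mean of its probes (adjusted p of 0.0649 to 0.465).

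Of 15 carriers of vitamins, choline and cofactors, 0 rose and 4 fell with GSK, 1 rose and 1 fell with ERKi, and 1 rose and 3 fell in DN_Ras (26.7%, 13.3% and 26.7% called, beside 16%, 11.4% and 12.3% of all genes). SLC19A1 (RFC1), the reduced folate carrier, read 6.11, 5.99 and 5.95 in control, 5.21, 5.06 and 5.33 with GSK, 5.20, 5.40 and 5.82 with ERKi, and 5.39, 5.58 and 5.68 in DN_Ras. All inhibited arrays lay below control. SLC19A1 fell by 0.82 ± 0.15 with GSK (adjusted p = 0.00124) and fell by 0.54 ± 0.15 with ERKi (adjusted p = 0.0269), and the DN_Ras difference of -0.46 (SE 0.15) just missed (adjusted p = 0.0517). The SLC19A1 call with ERKi was lost without Control replicate 1, 2 or 3 or ERKi replicate 1 or 2 and with one-median scaling (adjusted p of 0.0591 to 0.227). The choline transporter-like gene SLC44A2 fell by 0.54 ± 0.12 with GSK (adjusted p = 0.00432) and fell by 0.48 ± 0.12 in DN_Ras (adjusted p = 0.0127), and SLC44A3 fell by 0.66 ± 0.14 with GSK (adjusted p = 0.00337) and fell by 0.48 ± 0.14 in DN_Ras (adjusted p = 0.0298). The SLC44A2 call in DN_Ras was lost without Control replicate 3 (adjusted p = 0.0567). The SLC44A3 call in DN_Ras was lost without Control replicate 1, 2 or 3 or DN_Ras replicate 2 or 3 (adjusted p of 0.0596 to 0.101). SLC46A3, a lysosomal transporter, read 6.49, 6.66 and 6.64 in control, 6.79, 6.75 and 6.86 with GSK, 7.61, 7.15 and 7.58 with ERKi, and 7.18, 7.24 and 6.94 in DN_Ras. It rose by 0.85 ± 0.13 with ERKi (adjusted p = 0.000785) and by 0.52 ± 0.13 in DN_Ras (adjusted p = 0.0188), and GSK minus ERKi was -0.65 ± 0.13 (adjusted p = 0.00568). The SLC46A3 call in DN_Ras was lost without Control replicate 1 or DN_Ras replicate 2 and with one-median scaling (adjusted p of 0.0686 to 0.249).

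Of 30 mitochondrial carriers, 3 rose and 2 fell with GSK, 1 rose and 2 fell with ERKi, and 2 rose and 1 fell in DN_Ras (16.7%, 10% and 10% called, beside 16%, 11.4% and 12.3% of all genes). SLC25A10, the dicarboxylate carrier for malate and succinate, read 8.62, 8.19 and 8.19 in control, 7.58, 7.76 and 7.81 with GSK, 7.62, 7.54 and 7.51 with ERKi, and 7.93, 8.29 and 8.12 in DN_Ras. The GSK and ERKi arrays lay below control, and DN_Ras overlapped it. SLC25A10 fell by 0.62 ± 0.14 with GSK (adjusted p = 0.00555) and fell by 0.78 ± 0.14 with ERKi (adjusted p = 0.00178), and DN_Ras minus ERKi was 0.56 ± 0.14 (adjusted p = 0.0177). The SLC25A10 call between DN_Ras and ERKi was lost without ERKi replicate 2 or 3 or DN_Ras replicate 2 and with one-median scaling (adjusted p of 0.054 to 0.364). SLC25A37 (mitoferrin-1), the iron importer of mitochondria, read 7.93, 7.62 and 7.81 in control, 7.64, 7.75 and 7.39 with GSK, 8.31, 8.13 and 8.34 with ERKi, and 8.05, 8.24 and 8.16 in DN_Ras. It rose by 0.47 ± 0.13 with ERKi (adjusted p = 0.0255), and GSK minus ERKi was -0.67 ± 0.13 (adjusted p = 0.00301). The SLC25A37 call with ERKi was lost without Control replicate 2 or 3 or ERKi replicate 1 or 3 (adjusted p of 0.0668 to 0.107). SLC25A24, an ATP-magnesium and phosphate carrier, fell by 0.80 ± 0.20 with GSK (adjusted p = 0.0105) by its brighter probe, while its other probe gave 0.35 (adjusted p = 0.0752). The SLC25A24 call with GSK was lost without GSK replicate 2 and with the mean of its probes (adjusted p of 0.0625 to 0.253). The abundant ADP/ATP carrier SLC25A5 gave -0.19, -0.14 and -0.13 (SE 0.11), none called.

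The lactate transporters SLC16A1 and SLC16A3 were not analysed here. Of 4 measured carboxylate carriers, SLC16A7 (MCT2) read 4.67, 5.21 and 5.09 in control, 5.80, 5.67 and 5.57 with GSK, 4.53, 5.14 and 4.96 with ERKi, and 5.18, 4.86 and 5.10 in DN_Ras, and was detected on 2 control, 3 GSK, 2 ERKi and 3 DN_Ras arrays. It rose by 0.69 ± 0.17 with GSK (adjusted p = 0.0106), a second probe rose by 0.47, and GSK minus ERKi was 0.80 ± 0.17 (adjusted p = 0.00612). SLC16A5 (MCT6) read 7.78, 7.76 and 7.85 in control and 7.06, 7.36 and 7.38 with GSK. It fell by 0.53 ± 0.12 with GSK (adjusted p = 0.00789), and GSK minus ERKi was -0.57 ± 0.12 (adjusted p = 0.00693). The SLC16A7 call with GSK was lost without Control replicate 1 and with one-median scaling (adjusted p of 0.0548 to 0.0665). Of 16 nucleotide sugar carriers of the Golgi and endoplasmic reticulum and their relatives, 2 rose and 0 fell with GSK, 1 rose and 1 fell with ERKi, and 1 rose and 0 fell in DN_Ras (12.5%, 12.5% and 6.25% called, beside 16%, 11.4% and 12.3% of all genes). SLC35A2, the UDP-galactose carrier, rose by 0.43 ± 0.11 with GSK (adjusted p = 0.014) and by 0.36 ± 0.11 with ERKi (adjusted p = 0.0481), and a dimmer probe gave 0.19 and 0.23, neither called. The SLC35A2 call with GSK was lost without Control replicate 1 or GSK replicate 2 and with one-median scaling or the mean of its probes (adjusted p of 0.0505 to 0.397). The SLC35A2 call with ERKi was lost without Control replicate 1, 2 or 3, GSK replicate 1, 2 or 3 or ERKi replicate 1, 2 or 3 and with one-median scaling, scaling to the median of detected probes, the looser detection filter, the mean of its probes or the replicate block (adjusted p of 0.0514 to 0.124). SLC35A4 read 8.60, 8.53 and 8.44 in control, 8.42, 8.37 and 8.31 with GSK, 8.07, 7.79 and 7.84 with ERKi, and 8.26, 8.35 and 8.60 in DN_Ras, and fell by 0.62 ± 0.12 with ERKi (adjusted p = 0.00377). The SLC35A4 call with ERKi was lost with one-median scaling (adjusted p = 0.133). SLC35A1, the CMP-sialic acid carrier, gave -0.06, 0.02 and -0.17 (SE 0.13), none called.

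**Figure D4:**
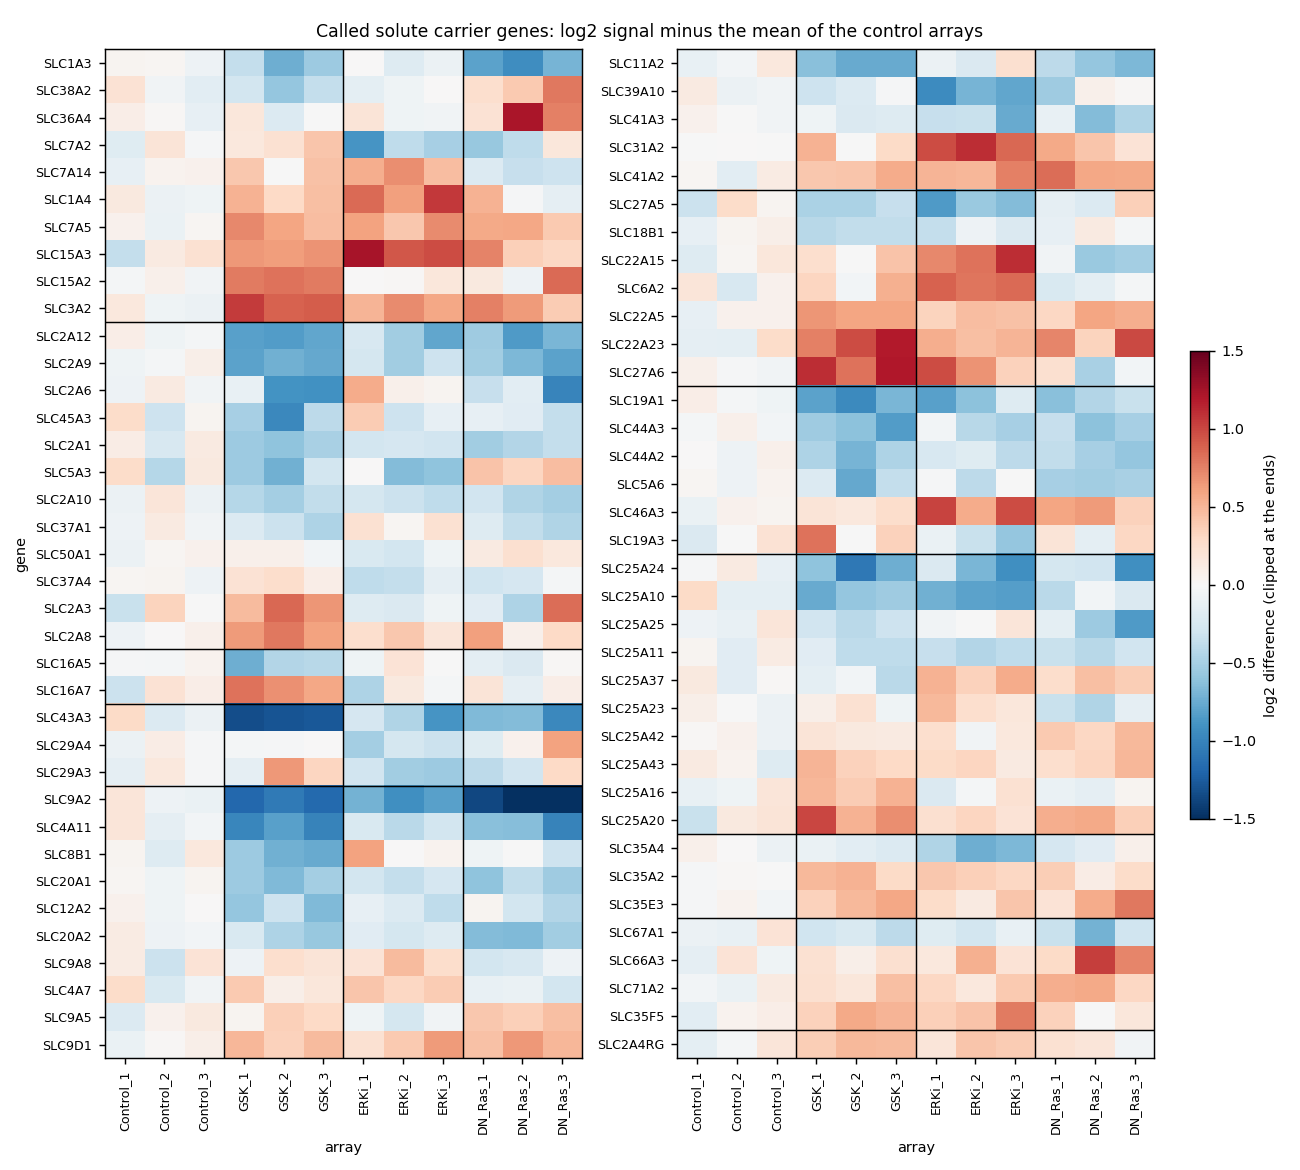
Log2 signal minus the mean of the control arrays for the 73 solute carrier genes called in at least 1 comparison, as colour from -1.5 (blue) to 1.5 (red), with 1 column per array and black lines between groups and between substrate classes. SLC9A2 and SLC43A3 are among the darkest blue rows, and the sugar block is mostly blue on the GSK arrays.

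In direct comparisons of the inhibited groups, DN_Ras against GSK called 10 of the 192 genes, or 5.21%, beside 4.4% of all genes; 4 were higher, beside 2.49% of all genes, and 6 lower, beside 1.91%. GSK against ERKi called 24 of the 192 genes, or 12.5%, beside 10.2% of all genes; 10 were higher, beside 3.52% of all genes, and 14 lower, beside 6.69%. DN_Ras against ERKi called 27 of the 192 genes, or 14.1%, beside 10.9% of all genes; 10 were higher, beside 4.79% of all genes, and 17 lower, beside 6.09%. Among the 174 genes detected on all 12 arrays, 7, 20 and 23 were called in these 3 comparisons. As single arrays were left out, the number of solute carrier genes called ranged from 3 to 14, from 12 to 30 and from 14 to 30 in that order; the arrays behind the low counts are named in the closing part on processing.

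Further genes stood among the largest differences. SLC27A5, a fatty acid and bile acid ligase, was detected on 2 ERKi arrays and on all others; it fell by 0.69 ± 0.17 with ERKi (adjusted p = 0.0144), and DN_Ras minus ERKi was 0.70 ± 0.17 (adjusted p = 0.0148). The SLC27A5 call with ERKi was lost without Control replicate 2 or 3 or ERKi replicate 1 and with one-median scaling (adjusted p of 0.0526 to 0.0693). The SLC27A5 call between DN_Ras and ERKi was lost without ERKi replicate 1 or DN_Ras replicate 3 and with one-median scaling (adjusted p of 0.0567 to 0.068). SLC2A6 (GLUT6), a hexose transporter, gave a call in which GSK minus ERKi was -0.87 ± 0.23 (adjusted p = 0.0244). The SLC2A6 call between GSK and ERKi was lost without GSK replicate 2 or 3 or ERKi replicate 1 and with no detection filter (adjusted p of 0.0788 to 0.118). SLC66A3 rose by 0.68 ± 0.17 in DN_Ras (adjusted p = 0.0148), and SLC35E3 rose by 0.52 ± 0.14 in DN_Ras (adjusted p = 0.0258). The SLC66A3 call in DN_Ras was lost without Control replicate 1 or 3 or DN_Ras replicate 2 and with one-median scaling or only these 2 groups in the fit (adjusted p of 0.054 to 0.101). The SLC35E3 call in DN_Ras was lost without Control replicate 1, 2 or 3 or DN_Ras replicate 2 or 3 and with one-median scaling or only these 2 groups in the fit (adjusted p of 0.0532 to 0.286). For SLC36A4, described above, DN_Ras minus GSK was 0.74 ± 0.19 (adjusted p = 0.0396) and DN_Ras minus ERKi was 0.71 ± 0.19 (adjusted p = 0.0277). The SLC36A4 call between DN_Ras and GSK was lost without Control replicate 1, 2 or 3, GSK replicate 2 or 3, ERKi replicate 2 or 3 or DN_Ras replicate 2 or 3 and with no detection filter or only these 2 groups in the fit (adjusted p of 0.0506 to 0.17). The SLC36A4 call between DN_Ras and ERKi was lost without ERKi replicate 2 or 3 or DN_Ras replicate 2 or 3 and with one-median scaling, no detection filter or only these 2 groups in the fit (adjusted p of 0.0622 to 0.149). For SLC27A6 DN_Ras minus ERKi was -0.76 ± 0.18 (adjusted p = 0.0153) by its brighter probe. The dimmer SLC27A6 probe gave -0.12 (adjusted p = 0.685) and was not called. The SLC27A6 call between DN_Ras and ERKi was lost without ERKi replicate 1 or DN_Ras replicate 2 and with only these 2 groups in the fit (adjusted p of 0.0637 to 0.0684).

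Of 25 genes listed as partners or regulators of carriers, 22 were measured. With GSK 4 were higher and 2 lower, with ERKi 1 and 2, and in DN_Ras 4 and 2, with list medians of 0.09, 0.02 and 0.21 beside all-gene medians of 0.01, -0.01 and 0.01. Of all genes, 7.11% were called higher and 8.86% lower with GSK. With ERKi these shares were 5.92% and 5.48%, and in DN_Ras 5.81% and 6.45%. The falls in DN_Ras include FLVCR1, which passed the detection rule only through the control arrays, so its call is tied to that rule. TXNIP, an arrestin-like protein that draws GLUT1 from the cell surface, rose by 2.77 ± 0.25 with GSK (adjusted p = 1.69e-06), 2.20 ± 0.25 with ERKi (adjusted p = 3.39e-05) and by 2.37 ± 0.25 in DN_Ras (adjusted p = 2.13e-05). MYC, which activates several nutrient transporter genes, fell by 0.76 ± 0.17 with GSK (adjusted p = 0.00695), 0.93 ± 0.17 with ERKi (adjusted p = 0.0028) and fell by 0.91 ± 0.17 in DN_Ras (adjusted p = 0.00299). ATF4, the stress factor known to induce SLC3A2 and SLC7A5, gave 0.12, -0.05 and 0.06 (SE 0.15), none called. The arrays read RNA only, so the level and activity of the ATF4 protein were not tested. The mitochondrial pyruvate carrier gene MPC1 rose by 0.50 ± 0.13 with GSK (adjusted p = 0.0134), and MPC2 rose by 0.38 ± 0.12 with GSK (adjusted p = 0.0356) and by 0.51 ± 0.12 in DN_Ras (adjusted p = 0.00939). ATP1B1, a sodium pump subunit, rose by 0.76 ± 0.20 in DN_Ras (adjusted p = 0.0201). BSG, the chaperone of lactate transporters, gave -0.25, -0.07 and 0.25 (SE 0.15), and the transferrin receptor TFRC gave -0.25, 0.07 and -0.10 (SE 0.11), none called. The MPC1 call with GSK was lost without Control replicate 1 or 3 or GSK replicate 3 and with one-median scaling (adjusted p of 0.0519 to 0.293). The MPC2 call with GSK was lost without Control replicate 1 or 3 or GSK replicate 1, 2 or 3 and with one-median scaling (adjusted p of 0.0546 to 0.527). The MPC2 call in DN_Ras was lost with one-median scaling (adjusted p = 0.322). The ATP1B1 call in DN_Ras was lost without Control replicate 1 or 2 or DN_Ras replicate 3 and with one-median scaling, no detection filter, the mean of its probes or only these 2 groups in the fit (adjusted p of 0.051 to 0.0782).

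The split of calls into higher and lower depended on the scaling. With arrays scaled to one median over all probes, the all-gene median moved by -0.12 with GSK, 0.12 with ERKi and -0.10 in DN_Ras, and by -0.24, 0.02 and -0.23 for GSK against ERKi, DN_Ras against GSK and DN_Ras against ERKi. Higher and lower calls then numbered 5 and 23 with GSK, 15 and 3 with ERKi and 0 and 13 in DN_Ras. Between inhibited groups they numbered 3 and 35, 3 and 1 and 1 and 31. With arrays scaled to the median of the detected probes, an alternative chosen after seeing the data, they numbered 18 and 22, 14 and 14 and 14 and 17 against control, and 13 and 12, 4 and 4 and 13 and 16 between inhibited groups. No called solute carrier gene changed direction under either scaling in the comparison where it was called.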

How the data were processed

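Biotin-labelled cRNA of 12 samples was read on Illumina bead arrays, according to the labels. Per the file headers, one deposited file gives for each of 47322 probes and each array the bead-averaged intensity, without normalization, together with a detection p-value, the number of beads and a standard error over beads on the signal scale. The submitters' processing notes name GenomeStudio, and no version is given in the sources. The authors' processed intensity values, which share their quantiles and go below 0, served as an alternative.

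Intensities were background-corrected, quantile normalized and put on the log2 scale with limma 3.58.1 (neqc, offset 16), which takes out any shift shared by most genes. Symbols came from the platform annotation given for the arrays, which can be old; 30112 probes had 1 symbol and 8 several. All 192 genes matched RefSeq by gene ID, and 43 had several usable probes. Just inside the detection rule lay SLC25A45 and SLC35D1 (detection p-values of 0.006494 and 0.009091), just outside SLC43A1 and SLC12A8 (0.01169 and 0.01299). Of the 192, 174 were detected on all 12 arrays and 6 passed through 1 group only. SLC29A1 and SLC6A8 were on the array and below detection.

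lmFit and eBayes were fitted to the 4 group means of all 12 arrays, with Benjamini-Hochberg adjustment over 10532 genes; the median moderated SD was 0.169, and the 3 arrays per group limit the precision. For a gene not well above background on any array of a group, the fold is a bound, set per array at that array's lowest detected signal or at the probe's own signal if that was higher. The fit was also run on simulated data with independent noise and fewer changed genes than were called here against control. That setting is unlike these data, so it does not vouch for the calls. Genes were named from among, per comparison with control, the 8 largest called rises and falls whose direction was shared by the 3 same-numbered pairs, the 2 smallest adjusted p per substrate class, the 5 largest differences each way between inhibited groups, well-known carriers, and partner genes; any other gene, such as SLC2A10, SLC46A3 in DN_Ras or SLC4A11 between inhibited groups, was chosen after its values were seen. The members and lists were chosen with earlier results of these data known. Separate experiments on one cell line gave the replicates, per the design text, so p-values measure the spread between these experiments. Alternatives were other scalings, background correction, detection filters, probe rules, the authors' values, fits of only the groups compared, the replicate number as a block, and each array left out.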

Additional observations from a re-analysis of the deposited data

How the results depend on the processing

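Of 159 calls of solute carrier genes over the 6 comparisons, 56 held under every alternative that could be computed, and none changed sign. One-median scaling ended 67, fits of only the groups compared 36, no detection filter 30, the mean over a gene's probes 12, normexp 12 and the authors' values 3. Leaving out 1 array ended 9 to 44. Why a call was lost was not tested. FXYD3 of the partner list, called lower with GSK than with ERKi (-0.47), passed the detection rule only through the ERKi arrays. That call is therefore tied to the rule. With no detection filter or with the looser one FXYD3 gave 0.081 and was not called (adjusted p of 0.905 and 0.83). Those filters keep more probes, so another probe can stand for a gene. With one-median scaling the number of solute carrier genes called was 13 for DN_Ras against Control, 38 for GSK against ERKi and 4 for DN_Ras against GSK. In fits of only the groups compared it was 18 for DN_Ras against Control, 3 for DN_Ras against GSK and 12 for DN_Ras against ERKi. With no detection filter DN_Ras against GSK had 5. All other counts from alternatives that kept every array were within 1.5 times the reported ones. Leaving out 1 array gave 28 to 45 calls for GSK against Control, 16 to 33 for ERKi against Control, 16 to 35 for DN_Ras against Control, 12 to 30 for GSK against ERKi, 3 to 14 for DN_Ras against GSK and 14 to 30 for DN_Ras against ERKi. ERKi against Control had 16, 17 and 16 without Control replicate 1, 2 and 3, and 17 without ERKi replicate 2 or 3. DN_Ras against Control had 16, 19 and 18 without these control arrays and 18 without DN_Ras replicate 2. GSK against ERKi had 12, 14 and 14 without GSK replicate 2, GSK replicate 3 and ERKi replicate 1. DN_Ras against GSK had 6 without Control replicate 3, 5, 4 and 3 without GSK replicate 1, 2 and 3, and 3 without DN_Ras replicate 2. DN_Ras against ERKi had 16, 16 and 14 without ERKi replicate 1, 2 and 3, and 17 and 15 without DN_Ras replicate 2 and 3. Deviations of same-numbered samples from their group means correlated at -0.185 to 0.331, over 0.1 in 9 of 18 pairs. No label says that a number marks an experiment, so the main fit did not pair the samples by number. The rule for naming the largest rises and falls did use same-numbered differences. With the replicate block the counts were 41, 28, 32, 26, 13 and 29 in the order above. As a random block the consensus correlation was 0.0168. A slide block was not run, because the column names give no slide.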
